A study of Mus musculus with 40 samples.

Results

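The genes described here are 45 genes of DNA replication and nucleotide supply, followed through 4T1 cells that carried 1 of 10 short hairpin RNAs. They were taken by name from the deposited expression tables and fall into 8 roles: origin licensing (13 genes), helicase activation (5), the sliding clamp and its loader (6), DNA polymerases and primase (8), single-strand binding and fragment joining (4), deoxynucleotide supply (4), E-type cyclins (2) and chromatin assembly behind the fork (3). All 45 were listed among the 23480 genes of each table. Of these, 44 of the 9489 genes tested in the Slpi table and 45 of the 9174 tested in the Mgp table were members. The gene left untested in the Slpi table was Ccne1, whose mean lay under the minimum level.

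4T1 is a mouse mammary carcinoma line, and the study asked how much hairpins from different sources disturb genes other than their target. The groups are divided by the drug of selection. Cells with hairpin 66708 (Slpi table) or 88943 (Mgp table) were selected in 1 µg/ml puromycin. Cells with Slpi1U1, Slpi1U2, Slpi2 or Slpi4, and cells with Mgp1, Mgp1U1, Mgp2 or Mgp1U3, were selected in 500 µg/ml hygromycin. Infection was at a multiplicity of 0.3, and selection lasted about 10 days. The design compares hairpins of the TRC collection with microRNA-housed shERWOOD hairpins. The numbered ones were taken to be TRC from their names and drug, which no label states, and source, vector and drug coincide and cannot be told apart. Each hairpin is 1 sequence in selected 4T1 cells, with 2 libraries, and no line without a hairpin was analysed here. Whether a hairpin stands for 1 selected pool or for more could not be told. The labels list 4 samples per hairpin, titled replicates A_1, A_2, B_1 and B_2. What A and B stand for, and which of these samples each library holds, could not be told. Nothing in the labels says that the libraries of a hairpin came from separate cultures. A p-value here therefore sets a difference against library spread that could be technical only.

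The libraries held between 12082237 and 28533761 counted reads. Slpi RNA stood at 156 and 145 CPM (counts relative to the library total) in the 66708 libraries and between 46.9 and 61.9 CPM in the 8 Slpi-named libraries. Mgp RNA stood at 16.2 and 15.4 CPM in the 88943 libraries and between 1.06 and 8.42 CPM in the 8 Mgp-named libraries. Both targets were thus higher in the numbered hairpin's cells, and how far each hairpin lowered its target cannot be read without a control line. All 6 epithelial markers were tested in both tables. In 66708, 5 were higher and Krt7 was lower (-0.47 on the deposited log2-like scale), where 32.1% of all genes tested were higher and 23.6% lower. In 88943 all 6 were higher, Epcam the most (1.13), where 28.7% of all genes tested were higher and 42.0% lower. The 5 leukocyte markers summed to 70 and 61 scaled reads in 66708 against 90 to 138 in the Slpi-named libraries, and to 117 and 123 in 88943 against 75 to 98 in the Mgp-named libraries. None of these 5 reached the minimum level, and of the 6 fibroblast and endothelial markers Pdgfra alone was tested, being higher in 88943 (0.48) and not passing in 66708. The part of these markers in the results below was not tested.

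Replication starts from licensed origins. The origin recognition complex (Orc1 to Orc6), Cdc6 and Cdt1 load the ring of Mcm2 to Mcm7 onto DNA in G1, Cdc45 and the GINS proteins turn that ring into a moving helicase in S phase, and primase and the polymerases then copy both strands behind it. Ribonucleotide reductase, thymidylate synthase and thymidine kinase supply the deoxynucleotides. Many of these genes are transcribed under E2F factors, which cyclin E and its kinase help to release from the retinoblastoma protein, so in dividing tumour cells their RNA levels follow the S-phase programme. In a bulk sample, fewer cells in S phase and less RNA per cell cannot be told apart.

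Per kilobase of transcript, the members ranged widely in level. Over the 10 hairpins, the median level was highest for Rrm2 (147 CPM per kb), Pcna (120 CPM per kb), Mcm6 (118 CPM per kb), Tk1 (97.3 CPM per kb) and Mcm3 (97.0 CPM per kb). It was lowest for Ccne1 (2.98 CPM per kb), Ccne2 (6.77 CPM per kb) and Pold1 (7.75 CPM per kb). The catalytic subunit of the ribonucleotide reductase pair is Rrm1, and its partner Rrm2 is the subunit that cells make in S phase. Summed, the members made up 0.466% and 0.471% of all reads in 66708, with the Slpi-named libraries at 0.478% to 0.495%. In 88943 the sum was 0.419% and 0.428%, with the Mgp-named libraries at 0.471% to 0.505%. By this share of all reads, the libraries of each numbered hairpin lay below the other 8 of their table, narrowly for 66708 and more clearly for 88943. For 66708 this depended on the scale. In reads divided by the authors' size factors, its sums were 81502 and 81926, inside the 78305 to 82069 of the Slpi-named libraries. For 88943 they were 68519 and 69486, below the 84458 to 90997 of the Mgp-named libraries.

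Because the members share a known regulator, their promoters were read from the RefSeq windows of build GRCm38.p6, which run from 250 bases before to 50 bases after each start. A window was found for 36 of the 45 members, the others being Mcm4, Gmnn, Gins1, Gins2, Gins4, Rfc2, Prim2, Pole and Ccne2. The 4 E2F words TTTCCCGC, TTTCGCGC, TTTGCCGC and TTTGGCGC were searched on both strands, and overlapping matches were counted separately. At least 1 word stood in the windows of 14 of the 36 members (38.9%), against 2.6% of the 27025 genes with a window. The letters CCAAT, on either strand, stood in 60.5% of the 43 member windows and 37.4% of all 32851 windows. A match describes letters and not a bound site. The 6 windows below are examples picked from members with and without a word, not in proportion to their numbers, with E2F words in capitals. They are Mcm6 (chr1:128359656-128359955, minus strand, 3 words, of which 2 overlap), Cdc6 (chr11:98907901-98908200, plus strand), Orc1 (chr4:108579204-108579503, plus strand), Pole2 (chr12:69228141-69228440, minus strand), and, without a word, Rrm2 (chr12:24708004-24708303, plus strand) and Mcm2 (chr6:88898731-88899030, minus strand). In the GENCODE annotation Cdc6 starts at 98907801, so its RefSeq window and the word in it lie inside the gene by that start.
Mcm6: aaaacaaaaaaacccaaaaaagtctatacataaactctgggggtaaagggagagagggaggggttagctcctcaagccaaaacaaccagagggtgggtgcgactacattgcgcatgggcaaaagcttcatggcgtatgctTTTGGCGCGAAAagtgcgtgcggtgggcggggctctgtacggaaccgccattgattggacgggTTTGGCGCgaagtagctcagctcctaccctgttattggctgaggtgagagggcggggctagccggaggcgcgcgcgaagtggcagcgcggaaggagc
Cdc6: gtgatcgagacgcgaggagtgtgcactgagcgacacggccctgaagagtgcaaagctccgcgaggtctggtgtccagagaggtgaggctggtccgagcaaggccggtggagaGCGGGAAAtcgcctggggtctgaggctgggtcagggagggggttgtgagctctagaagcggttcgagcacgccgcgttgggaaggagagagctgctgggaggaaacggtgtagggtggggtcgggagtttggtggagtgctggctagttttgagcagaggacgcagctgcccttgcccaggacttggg
Orc1: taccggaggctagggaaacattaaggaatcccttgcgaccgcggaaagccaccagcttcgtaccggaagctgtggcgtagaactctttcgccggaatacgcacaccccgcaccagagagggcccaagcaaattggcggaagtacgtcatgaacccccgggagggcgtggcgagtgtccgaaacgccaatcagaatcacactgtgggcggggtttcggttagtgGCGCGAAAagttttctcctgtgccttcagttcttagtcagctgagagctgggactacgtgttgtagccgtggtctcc
Pole2: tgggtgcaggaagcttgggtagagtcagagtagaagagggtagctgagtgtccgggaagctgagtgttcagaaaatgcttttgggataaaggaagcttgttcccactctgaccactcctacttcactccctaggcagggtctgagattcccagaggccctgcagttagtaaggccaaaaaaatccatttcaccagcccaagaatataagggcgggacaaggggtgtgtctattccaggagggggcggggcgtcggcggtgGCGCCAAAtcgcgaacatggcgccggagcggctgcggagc
Rrm2: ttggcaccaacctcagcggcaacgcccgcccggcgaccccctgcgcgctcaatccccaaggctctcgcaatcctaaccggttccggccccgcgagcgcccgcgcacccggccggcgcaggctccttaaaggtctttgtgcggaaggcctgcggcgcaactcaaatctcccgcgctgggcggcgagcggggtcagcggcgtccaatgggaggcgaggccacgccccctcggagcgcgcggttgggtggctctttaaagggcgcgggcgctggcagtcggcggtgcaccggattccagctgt
Mcm2: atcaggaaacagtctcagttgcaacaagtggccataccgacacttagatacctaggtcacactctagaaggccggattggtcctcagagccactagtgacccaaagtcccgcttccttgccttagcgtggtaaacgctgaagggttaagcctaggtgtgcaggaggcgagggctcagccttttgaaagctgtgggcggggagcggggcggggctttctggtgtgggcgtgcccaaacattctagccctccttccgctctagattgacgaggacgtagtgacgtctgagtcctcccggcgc

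In cells with 66708, the members moved in both directions and little, with Mcm2 as the exception. Of the 44 members tested, 14 were higher than in the 4 Slpi-named hairpins, 7 were lower and 23 did not pass (limma, adjusted p under 0.05). Those are close to the shares over all genes of the table, in which 55.7% were called, 32.1% higher and 23.6% lower. The median difference of the members was 0.03 on the deposited log2-like scale, where that of all genes tested was 0.02. When library medians were set equal the members split into 8 higher and 8 lower, with quantile normalization into 7 higher and 8 lower with a median of -0.01, and with library totals in place of the authors' size factors into 5 higher and 10 lower, with a median of -0.04. The calls over all genes were 57.6% higher as deposited, 48.3% with equal medians, 49.1% with quantile normalization and 37.7% with library totals. A fold below is a ratio of mean scaled reads, which are reads divided by the authors' size factors, and a difference is on the deposited scale, which understates changes of weakly expressed genes.

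**Figure D1:**
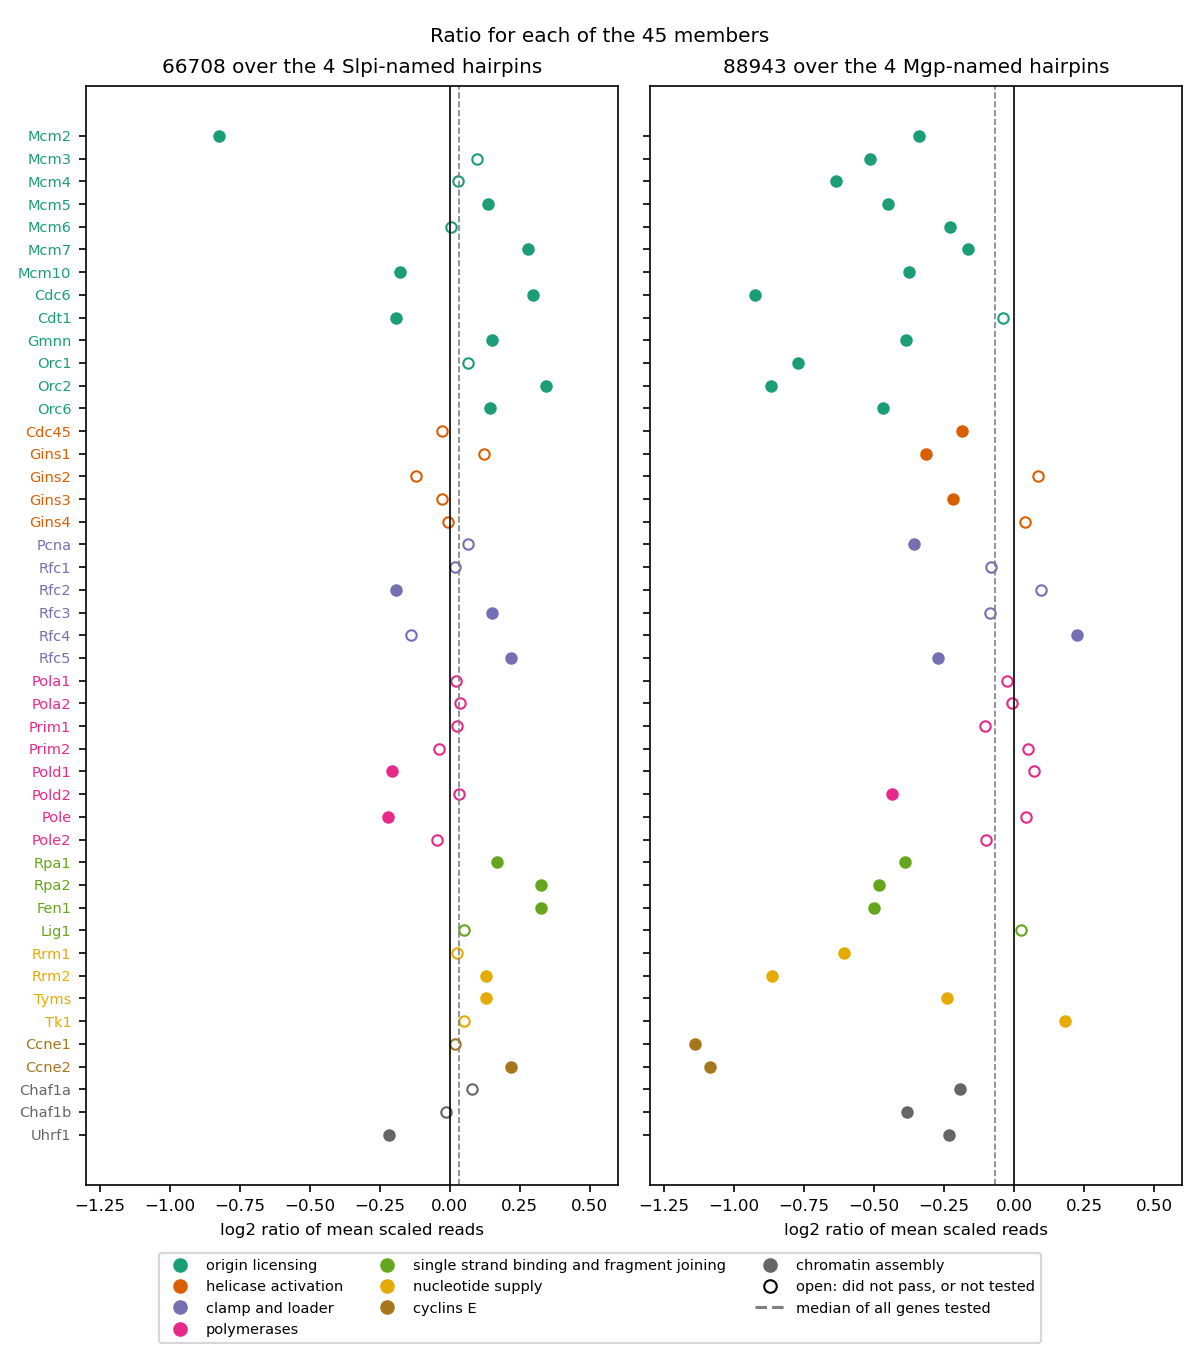
Log2 ratio of mean scaled reads for each of the 45 members, in 66708 over the 4 Slpi-named hairpins (left) and in 88943 over the 4 Mgp-named hairpins (right). Colours give the role, filled points passed the limma test, open points did not or were not tested, and the dashed line is the median over all genes tested. Mcm2 lies far from the other members on the left, where the direction of 9 of the 14 higher calls did not pass the test with library totals as the scale, and several licensing genes, Rrm1, Rrm2 and both E-type cyclins lie furthest below 0 on the right.

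Mcm2 (ENSMUSG00000002870, GRCm38 chr6:88883474-88898780, minus strand, 16 exons) encodes a subunit of the replicative helicase that also binds histones. It had 1411 and 1435 scaled reads in the 66708 libraries, against a lowest of 2459, a median of 2517 and a highest of 2587 in the 8 Slpi-named libraries. The groups did not overlap, and the 8 Slpi-named libraries lay close together. Mcm2 averaged 1423 ± 16.7 scaled reads in 66708 (SD, n = 2 libraries) and 2517 ± 37.4 over the Slpi-named hairpins (SD, n = 4 hairpin means). That is a fold of 0.565 and a difference of -0.67 (SE 0.033, adjusted p = 6.98e-10). It was the only member of the 44 with a call and a fold of at least 1.5 lower, which 3.05% of all genes tested reached, and no member reached 1.5-fold higher, which 3.11% did. Ordered from the lowest fold, Mcm2 stood at place 87 among the 9489 genes.

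The other 5 subunits of the ring did not move with it. Mcm5 (fold 1.10) and Mcm7 (fold 1.21) were higher in 66708, and Mcm3 (fold 1.07), Mcm4 (fold 1.02) and Mcm6 (fold 1.00) did not pass. Mcm2 therefore came to 31.6% and 32.4% of the mean scaled reads of Mcm3 to Mcm7 in the 66708 libraries, against 58.0% to 62.6% in the Slpi-named libraries. In the 88943 libraries it came to 60.2% and 61.7%, against 56.6% to 60.6% in the Mgp-named libraries. The low proportion was seen in 66708 alone among the 10 hairpins, and the call on Mcm2 passed in every alternative fit and without any 1 library.

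**Figure D2:**
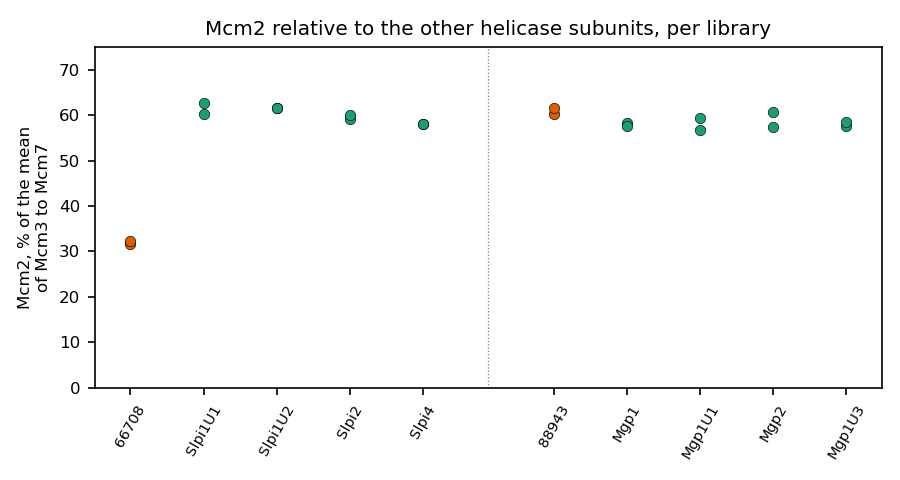
Scaled reads of Mcm2 as a percentage of the mean scaled reads of Mcm3 to Mcm7, with 1 point per library, orange for 66708 and 88943 and green for the gene-named hairpins. The 2 libraries of 66708 lie at 31.6% and 32.4%, and the other 18 lie between 56.6% and 62.6%.

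Among the loaders, Orc2 and Cdc6 were higher in 66708. Orc2, a core subunit of the origin recognition complex, had 1434 and 1578 scaled reads in 66708, against a lowest of 1092, a median of 1196 and a highest of 1318 in the Slpi-named libraries (fold 1.27, difference 0.26, adjusted p = 0.000123). Cdc6, the ATPase that brings the helicase to the origin, had 1622 and 1643 scaled reads in 66708, against 1182, 1337 and 1451 as the lowest, median and highest of the Slpi-named libraries (fold 1.23, difference 0.23, adjusted p = 7.18e-05). For both genes the 66708 libraries lay above all others. Cdt1, the partner of Cdc6 in loading, was lower by contrast, with 1900 and 1821 scaled reads in 66708 against 1885 to 2451 in the Slpi-named libraries (fold 0.875, difference -0.15, adjusted p = 0.00299), and here the groups overlapped. Cdt1 averaged 1930 scaled reads in Slpi1U1, 2020 in Slpi4, 2200 in Slpi1U2 and 2354 in Slpi2. Its call in 66708 did not pass with hairpin means as the samples. The ratio of Cdc6 to Cdt1 scaled reads was 0.854 and 0.902 in the 66708 libraries and 0.516 to 0.720 in the Slpi-named libraries. Of the remaining genes of the licensing list, Gmnn, the inhibitor of Cdt1, and Orc6 were higher by folds of 1.11. Mcm10, which is not part of the ring of Mcm2 to Mcm7, was lower with a fold of 0.884, and Orc1 did not pass.

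At the fork the changes in 66708 stayed small. None of Cdc45, Gins1, Gins2, Gins3 and Gins4 passed, with folds of 0.921 to 1.09. Of the clamp and its loader, Rfc3 (fold 1.11) and Rfc5 (fold 1.16) were higher, Rfc2 (fold 0.876) was lower, and Pcna, Rfc1 and Rfc4 did not pass. Of the polymerases, Pold1 (fold 0.866) and Pole (fold 0.857), the catalytic subunits that copy the lagging and the leading strand, were lower, and the other 6 did not pass. Pold1 had 445 and 402 scaled reads in 66708 against 435 to 539 in the Slpi-named libraries, with overlap (difference -0.12, adjusted p = 0.0332). Its call did not pass without the filter on low values or with hairpin means as the samples. Pole had 2306 and 2358 scaled reads in 66708, against a lowest of 2562, a median of 2750 and a highest of 2859 in the Slpi-named libraries, without overlap (difference -0.19, adjusted p = 0.000201).

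Fen1, the flap nuclease that trims Okazaki fragments, and the single-strand binding subunits Rpa1 and Rpa2 were higher in 66708, with folds of 1.25, 1.12 and 1.25, and the ligase Lig1 did not pass. Fen1 had 945 and 959 scaled reads in 66708, against a lowest of 692, a median of 773 and a highest of 817 in the Slpi-named libraries, without overlap (difference 0.22, adjusted p = 0.00012). In the annotation of GRCm38, 80.5% of the exon bases of Fen1 are shared with Gm10143 on the opposite strand, so its count is uncertain where the counting ignored strand, which the sources used here do not state. The same holds for Gins2, which shares 70.7% of its bases with Gse1, and Chaf1a, which shares 48.6% with Ubxn6. Rrm2 (fold 1.09) and Tyms (fold 1.09) were higher, and Rrm1 and Tk1 did not pass. Reads of Tyms are uncertain too, since a copy listed as Tyms-ps averaged 905 scaled reads here and 952 in the table of 88943. Ccne2 was higher with a fold of 1.16, and Ccne1 was listed but untested. Ccne2 had 344 and 363 scaled reads in 66708 against 219 to 347 in the Slpi-named libraries, so the groups overlapped. The low end of that range is the Slpi2 libraries. The Ccne2 call did not pass with equal library medians, with library totals or with hairpin means as the samples. Uhrf1, which recognises hemimethylated DNA behind the fork, was lower (fold 0.86, difference -0.18, adjusted p = 0.000559), and the chromatin assembly subunits Chaf1a and Chaf1b did not pass.

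Both 66708 libraries lay above the 8 Slpi-named libraries for 12 of the 44 members (28.3% of all genes tested did) and below them for 5 (20.4% of all genes did). The calls that passed in every fit but the minimum of 3 units, which left most members untested, and without any 1 library, were those of Mcm7, Cdc6, Orc2, Rpa2 and Fen1 as higher and of Mcm2, Pole and Uhrf1 as lower. Leaving out either of the 66708 libraries gave 8 higher calls in place of 14.

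In cells with 88943, the members were mostly lower. Of the 45 tested, 29 were lower than in the 4 Mgp-named hairpins, 2 were higher and 14 did not pass. Calls were frequent across the table, with 70.7% of all genes tested called, 42.0% lower and 28.7% higher, so the share of members called (68.9%) was near the background while the split between directions was not the same: 64.4% of members were lower and 4.44% higher. The median difference of the members was -0.18, where that of all genes was -0.04. The scaling matters for this contrast, because library totals in place of size factors move the median log2 ratio over all genes from -0.06 to 0.07. The members' median difference was then -0.09 where that of all genes was 0.04, and 23 members were called lower and 10 higher. With library medians set equal, 27 were lower and 6 higher, and the share of higher calls over all genes was 50.3% where it was 40.6% as deposited (48.4% with quantile normalization and 59.6% with library totals).

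The largest changes were in licensing, ribonucleotide reductase and the E-type cyclins. Folds of at least 1.5 lower, with a call, were reached by 8 of the 45 members, namely Mcm4, Cdc6, Orc1, Orc2, Rrm1, Rrm2, Ccne1 and Ccne2, where 7.99% of all genes tested reached them. No member reached 1.5-fold higher, which 6.46% of all genes did. Both 88943 libraries lay below the 8 Mgp-named libraries for 27 members, where 36.2% of all genes did so, and above them for 1 member, where 24.3% of all genes did.

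Of the 13 genes of the licensing list, 12 were lower and Cdt1 alone did not pass (10 of 13 lower with quantile normalization or with library totals). Over all genes tested, 42.0% were lower as deposited, 36.0% with quantile normalization and 28.8% with library totals. The list counts Mcm10, which is neither a loader nor part of the ring. The summed scaled reads of the 13 genes were 27611 and 27894 in the 88943 libraries and 35885 to 39378 in the Mgp-named libraries. Cdc6 (ENSMUSG00000017499, GRCm38 chr11:98907801-98923940, plus strand) had 935 and 881 scaled reads in 88943, against a lowest of 1662, a median of 1721 and a highest of 1782 in the Mgp-named libraries (fold 0.526, difference -0.67, adjusted p = 4.03e-11). Orc2 (ENSMUSG00000026037, GRCm38 chr1:58462771-58505109, minus strand) had 913 and 909 scaled reads in 88943, against a lowest of 1567, a median of 1668 and a highest of 1765 (fold 0.548, difference -0.63, adjusted p = 9.74e-11). Neither gene's 88943 libraries came near the other 8. Of the bases of Orc2, 24.0% are shared with Nif3l1 on the opposite strand.

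Orc1, the ATPase subunit of the recognition complex, had 706 and 630 scaled reads in 88943, against a lowest of 922, a median of 1133 and a highest of 1290 in the Mgp-named libraries (fold 0.586, difference -0.51, adjusted p = 2.48e-08). The groups did not overlap, although the Mgp-named libraries themselves ranged widely for this gene. Cdt1 had 2167 and 2231 scaled reads in 88943, inside the range of 2008 to 2444 of the Mgp-named libraries (fold 0.972, adjusted p = 0.486). The ratio of Cdc6 to Cdt1 was accordingly 0.432 and 0.395 in 88943 and 0.703 to 0.856 in the Mgp-named libraries. Gmnn (fold 0.766), Orc6 (fold 0.722) and Mcm10 (fold 0.77) were lower.

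All 6 subunits of the helicase ring were lower in 88943, to unequal extents, where 42.0% of all genes tested were lower. Mcm4 had the lowest fold (0.644), then Mcm3 (0.70), Mcm5 (0.732), Mcm2 (0.791), Mcm6 (0.853) and Mcm7 (0.892). Mcm4 had 2996 and 3072 scaled reads in 88943, against a lowest of 4298, a median of 4627 and a highest of 5336 in the Mgp-named libraries (difference -0.56, adjusted p = 1.49e-09), without overlap. Mcm6 had 4814 and 5163 scaled reads, against a lowest of 5342, a median of 5832 and a highest of 6509, and its call (difference -0.21, adjusted p = 0.000168) and that of Mcm7 (difference -0.14, adjusted p = 0.00167) did not pass with quantile normalization (differences -0.06 and -0.03) or with library totals (-0.09 and -0.02).

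**Figure D3:**
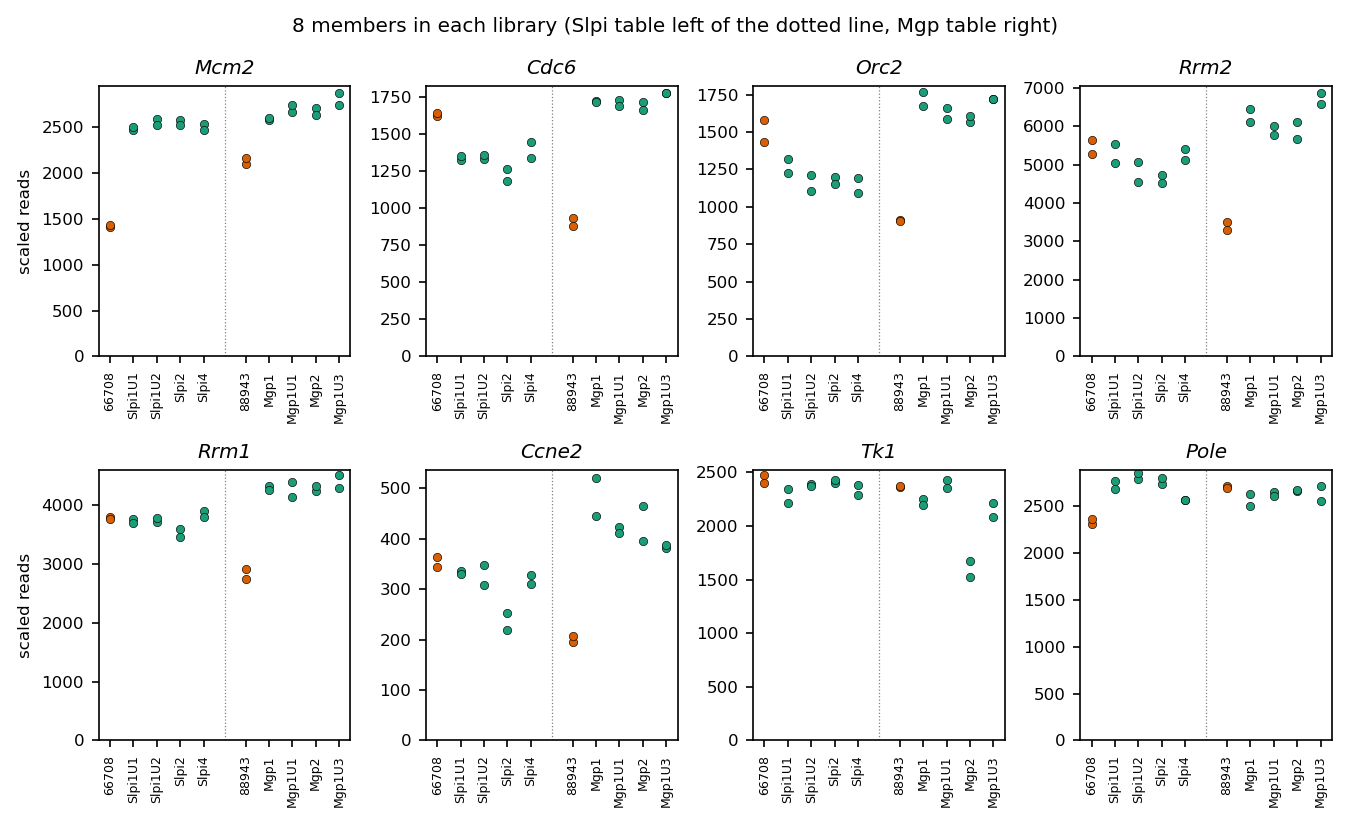
Scaled reads of 8 members in each library, with 66708 and the Slpi-named hairpins left of the dotted line and 88943 and the Mgp-named hairpins right of it. Orange points are the numbered hairpins and green points the gene-named ones, with 2 libraries each, and levels are comparable within a table only. Cdc6, Orc2, Rrm1, Rrm2 and Ccne2 lie low in 88943, Mcm2 lies lowest in 66708, Tk1 lies low in Mgp2, and Pole lies low in 66708 but not in 88943.

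Of the 8 polymerase and primase genes, Pold2, an accessory subunit of polymerase delta, was lower (1137 and 1177 scaled reads in 88943 against 1408 to 1691 in the Mgp-named libraries, fold 0.74, difference -0.32, adjusted p = 2.26e-07). The other 7 did not pass, with folds of 0.932 to 1.05. The sign of the group's median depended on the scaling: it was -0.01 as deposited, 0.04 with equal medians or quantile normalization and 0.09 with library totals, where 4 genes were higher and 1 lower. With library totals 42.4% of all genes were higher and 28.8% lower, with a median of 0.04. Pole, lower in 66708, had 2711 and 2693 scaled reads in 88943 and 2501 to 2716 in the Mgp-named libraries (adjusted p = 0.341). Cdc45, Gins1 and Gins3 were lower with folds of 0.879, 0.805 and 0.859, and Gins2 and Gins4 did not pass. These 3 calls were among the 7 lower calls of 88943 that were lost under some alternative fit.

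Of the clamp and its loader, Pcna (2440 and 2577 scaled reads in 88943 against 2988 to 3326 in the Mgp-named libraries, fold 0.78, difference -0.30, adjusted p = 1.17e-06) and Rfc5 (fold 0.829) were lower. Rfc4 was higher (333 and 319 scaled reads in 88943 against 251 to 304, fold 1.17, difference 0.10, adjusted p = 0.0155), but not with quantile normalization (0.06). Rfc1, Rfc2 and Rfc3 did not pass. Rpa1, Rpa2 and Fen1 were lower with folds of 0.763, 0.716 and 0.708, and Lig1 did not pass (fold 1.02). The 3 chromatin genes were lower, with folds of 0.874 for Chaf1a, 0.768 for Chaf1b and 0.852 for Uhrf1, but with quantile normalization or library totals only the call of Chaf1b passed.

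Both subunits of ribonucleotide reductase were lower in 88943, and the small one by more. Rrm2 (ENSMUSG00000020649, GRCm38 chr12:24708241-24714146, plus strand) had 3306 and 3496 scaled reads in 88943, against a lowest of 5669, a median of 6103 and a highest of 6870 in the Mgp-named libraries (fold 0.549, difference -0.77, adjusted p = 6.43e-11). Rrm1 had 2748 and 2907 scaled reads in 88943, against a lowest of 4146, a median of 4308 and a highest of 4510 (fold 0.656, difference -0.53, adjusted p = 1.66e-09). For both genes the groups were far apart relative to the distance between libraries of 1 hairpin. The ratio of Rrm2 to Rrm1 reads was 1.20 and 1.20 in the 88943 libraries and 1.34 to 1.53 in the Mgp-named libraries.

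Thymidylate synthase, Tyms, was lower with a fold of 0.846. Tk1, which salvages thymidine, was called higher (2362 and 2379 scaled reads in 88943 against 1527 to 2426, fold 1.13, difference 0.16, adjusted p = 0.000771), and the groups overlapped. The low end of that range is the 2 Mgp2 libraries, and the call did not pass with hairpin means as the samples.

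The E-type cyclins, which drive entry into S phase with Cdk2, had the lowest folds of all members. Ccne2 had 196 and 208 scaled reads in 88943, against a lowest of 381, a median of 417 and a highest of 520 in the Mgp-named libraries (fold 0.471, difference -0.50, adjusted p = 1.88e-08). Ccne1 had 97 and 79 scaled reads in 88943, from 96 and 114 reads, against a lowest of 166, a median of 194 and a highest of 231 (fold 0.454, difference -0.37, adjusted p = 1.23e-07). Neither gene's groups overlapped. Ccne1 also differed between the tables: its mean level was 5.2 CPM in 66708, 4.1 to 6.0 CPM in the 4 Slpi-named hairpins, 5.4 CPM in 88943 and 9.4 to 12.0 CPM in the 4 Mgp-named hairpins. The level in 88943 was thus like that of the Slpi table, which was normalized separately and was not tested against it. For Ccne2, in contrast, 88943 had the lowest mean of the 10 hairpins, with 12.4 CPM, and Slpi2 the next lowest, with 14.3 CPM. Of the bases of Ccne2, 20.3% are shared with Ints8 on the opposite strand.

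In 88943, of the 14 tested members with a word, 8 were lower, and of the 22 without one, 17 were lower and 2 higher, where 42.0% of all genes were lower and 28.7% higher. Cdc6, Orc1 and Mcm6 hold a word and were lower, although the window of Cdc6 lies inside the gene by the GENCODE start. Pole2 holds one and did not pass (fold 0.933, adjusted p = 0.123), and Rrm2 holds none and was lower. In 66708, 4 of the 14 with a word were higher and 3 lower, and of the 21 without one 8 were higher and 2 lower, shares near those of all genes for higher calls (32.1%; 23.6% were lower). A member counted as holding a word if any of its windows did, 43 windows standing for 36 members, and the counts say nothing of sites outside these windows.

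Of the 44 members tested in both tables, 13 (29.5%) were higher in 66708 and lower in 88943, as were 18.4% of the 9144 genes tested in both. A further 12 (27.3%) did not pass in 66708 and were lower in 88943, where 17.7% of all genes did so. Mcm2, Mcm10 and Uhrf1 were lower in both (6.82%, against 5.91% of all genes). No member was higher in both, as 6.44% of all genes were, or lower in 66708 and higher in 88943, as 10.6% were. With library totals 9 of the 14 higher calls in 66708 were lost, and the call of Uhrf1 in 88943 was lost with library totals and with quantile normalization. The contrasts share no library, but the tables were normalized separately and the difference between them was not tested. Over the 10 hairpins, by mean CPM, 88943 was lowest for 20 members and 66708 for 6, and Mgp1U3 was highest for 11. The same order was not counted over all genes, so these counts have no background to stand against. It also runs across both tables and rests on small differences for some members (highest over lowest 1.12 for Tyms). The ratio of the highest to the lowest hairpin was largest for Ccne1 (2.91), Ccne2 (2.20), Mcm2 (1.93), Rrm2 (1.78) and Cdc6 (1.76).

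Among the gene-named hairpins, which share vector and drug, the members differed little. Against the other 3 Slpi-named hairpins, no member was called in Slpi1U1, where 1.8% of all genes were called (0.706% higher, 1.1% lower), or in Slpi1U2, where 1.35% were (0.39% higher, 0.959% lower). In Slpi2, 2 members were called (3.65% of all genes, 2.0% higher and 1.64% lower), Cdt1 being higher (fold 1.15, difference 0.17, adjusted p = 0.0277) and Ccne2 lower (fold 0.722, difference -0.22, adjusted p = 0.00443). Ccne2 had 219 and 252 scaled reads in the Slpi2 libraries, and the other 6 Slpi-named libraries all had more. In Slpi4, Pcna alone was called (5.74% of all genes, 2.74% higher and 3.0% lower), higher by a fold of 1.15. A test of any difference among the 4 Slpi-named hairpins called 3 of 44 members, Cdt1, Pcna and Ccne2, where 7.55% of all genes were called.

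The Mgp-named hairpins differed from each other more often, as did the whole table. Against the other 3, Mgp1 had 1 call, Cdt1 being lower, where 7.5% of all genes were called (4.01% higher, 3.49% lower). Mgp1U1 had 3, with Gins3 and Fen1 lower and Tk1 higher, where 5.56% of all genes were called (2.16% higher, 3.4% lower). Mgp2 had 4, with Mcm4, Orc1, Pola1 and Tk1 all lower, where 17.9% were called (8.22% higher, 9.69% lower). Mgp1U3 had 6, with Mcm4, Mcm6, Orc1, Pola1 and Rrm2 higher and Gins2 lower, where 15.1% were called (7.98% higher, 7.12% lower). The test of any difference among the 4 called 12 of the 45 members, where 29.4% of all genes were called. Tk1 had the largest change, with 1678 and 1527 scaled reads in the Mgp2 libraries and 2082 to 2426 in the other 6 Mgp-named libraries (fold 0.711, difference -0.39, adjusted p = 9.01e-06). The Mgp2 libraries lay below every other library of their table for this gene. Pola1, the catalytic subunit of polymerase alpha, was lower in Mgp2 (difference -0.19, adjusted p = 0.0157) and higher in Mgp1U3 (difference 0.22, adjusted p = 0.00815). Apart from Tk1, no difference of a member among gene-named hairpins was larger than 0.23 on the deposited scale.

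**Figure D4:**
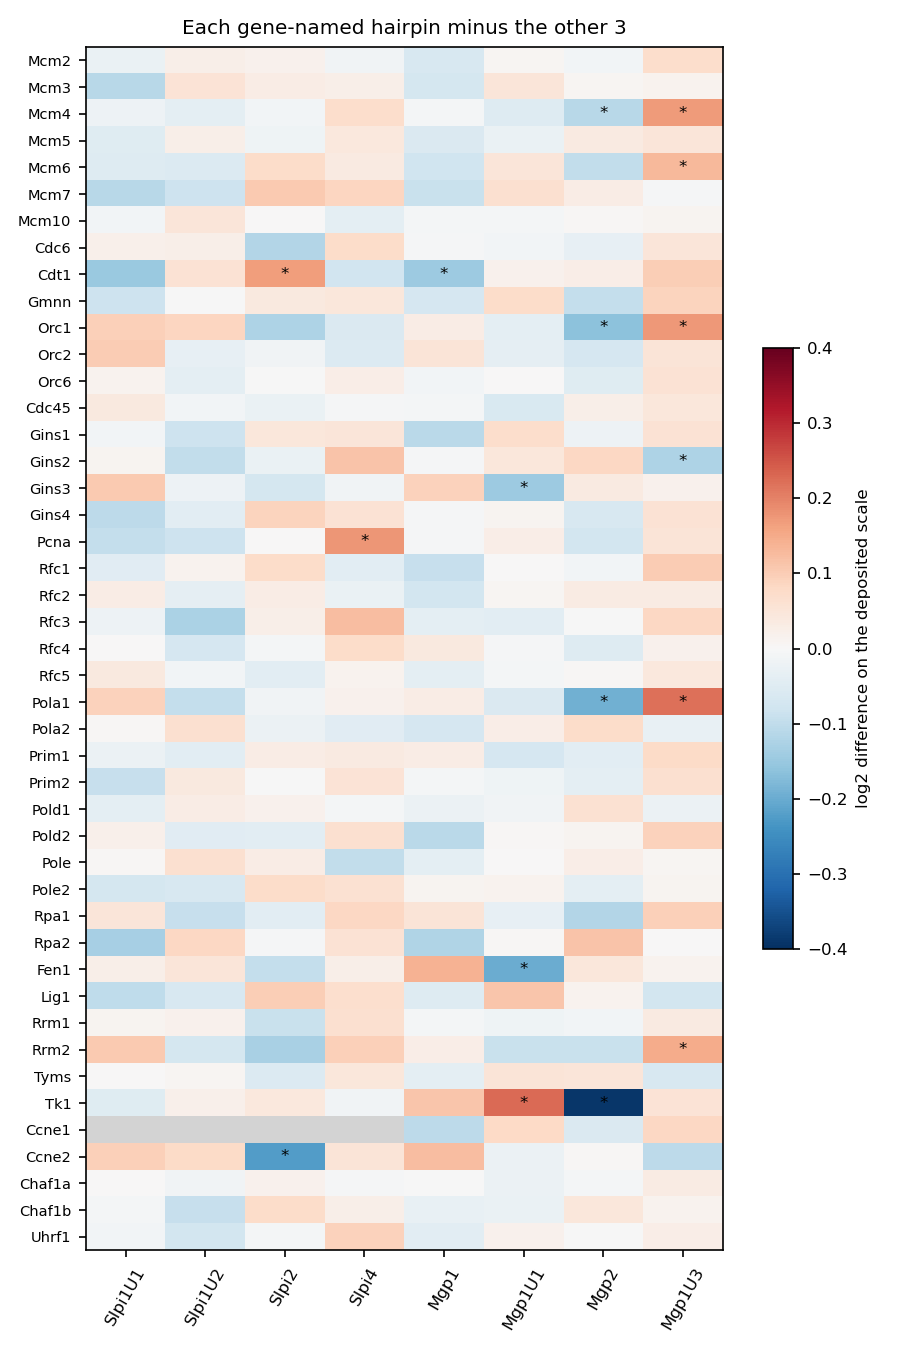
Difference of each gene-named hairpin from the mean of the other 3 of its table, on the deposited log2-like scale, for the 45 members. Asterisks mark differences that passed the limma test, grey marks Ccne1, which was not tested in the Slpi table, and the darkest cell is Tk1 in Mgp2 at -0.39.

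Genes outside the 45 that act in the same processes were examined from lists of known roles, whose counts stand against 42.0% lower and 28.7% higher and a median of -0.04 over all genes in 88943. With library totals, 28.8% of all genes were lower and 42.4% higher there, with a median of 0.04. In 88943 as deposited, 22 of 33 other replication genes were lower and 4 higher, with a median difference of -0.16 (-0.06 with library totals, where 14 were lower and 8 higher). The largest differences were those of Dtl, which directs Cdt1 to destruction (-0.65), the histone chaperones Nasp (-0.62) and Supt16 (-0.55), and the checkpoint adaptor Clspn (-0.49). Of 28 other genes of nucleotide metabolism, 24 were lower and 2 higher, with a median of -0.42 (-0.32 with library totals, where 22 were lower and 3 higher). Nme1, a nucleoside diphosphate kinase (-0.82), and the purine synthesis enzymes Atic (-0.71), Ppat (-0.70) and Adsl (-0.70) led them.

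Of 26 tested genes of G1/S control, 19 were lower in 88943 and 5 higher, with a median of -0.20 (-0.10 with library totals). Of the E2F genes named here, the activator E2f1 was lower (-0.24), the activator E2f2 higher (0.50) and the repressor E2f8 lower (-0.55). Other E2F genes of the list are not given. Ccnd1, the D-type cyclin of early G1, was lower (-0.51), the pocket protein gene Rbl2 (0.50) and the kinase inhibitor gene Cdkn1a (0.18) were higher, and Myc did not pass (-0.10, adjusted p = 0.0744, and 0.08 with quantile normalization). Of the mitosis and spindle genes, 12 of 28 were lower, which at 42.9% is near the share over all genes, and 4 were higher, with a median of -0.06. With library totals 8 were lower and 9 higher with a median of 0.05, where 28.8% of all genes were lower and 42.4% higher. With quantile normalization 7 were lower and 10 higher, where 36.0% of all genes were lower and 33.8% higher. Ccnb1 (-0.52), Cdk1 (-0.47), Plk1 (-0.40) and Kif20a (-0.34) were lower, and Mki67, a marker of cycling cells, was higher (0.32).

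In 66708, 32.1% of all genes were higher and 23.6% lower, with a median of 0.02. These shares were 26.1% and 27.0% with quantile normalization, and 20.9% and 34.5% with library totals. Of the 28 mitosis and spindle genes, 20 were lower and 1 higher, with a median of -0.13, which was -0.13 to -0.20 over the scalings tried. Cenpf (-0.50), Cenpe (-0.40), Mki67 (-0.35) and Bub1 (-0.33) were lower. Other nucleotide genes were 11 higher, or 39.3%, and 3 lower (median 0.06, and -0.01 with library totals), led by Nme1 (0.54), the nucleoside transporter Slc29a1 (0.52), Nme2 (0.44) and Atic (0.30). Other replication genes were 6 higher and 13 lower (4 and 16 with quantile normalization, 2 and 20 with library totals, where the median was -0.15 in place of -0.06), with Pold4 (-0.34), the clamp unloader Atad5 (-0.30), Mcm8 (-0.20) and Orc3 (-0.19) furthest below. The 26 G1/S control genes were 8 higher, or 30.8%, and 9 lower (8 and 13 with quantile normalization, 7 and 13 with library totals). Cdk4 (0.44), Ccnd1 (0.29) and E2f1 (0.27, with overlapping groups) were higher, and Rbl1 (-0.32), Cdkn1a (-0.20) and Myc (-0.19) were lower.

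**Figure D5:**
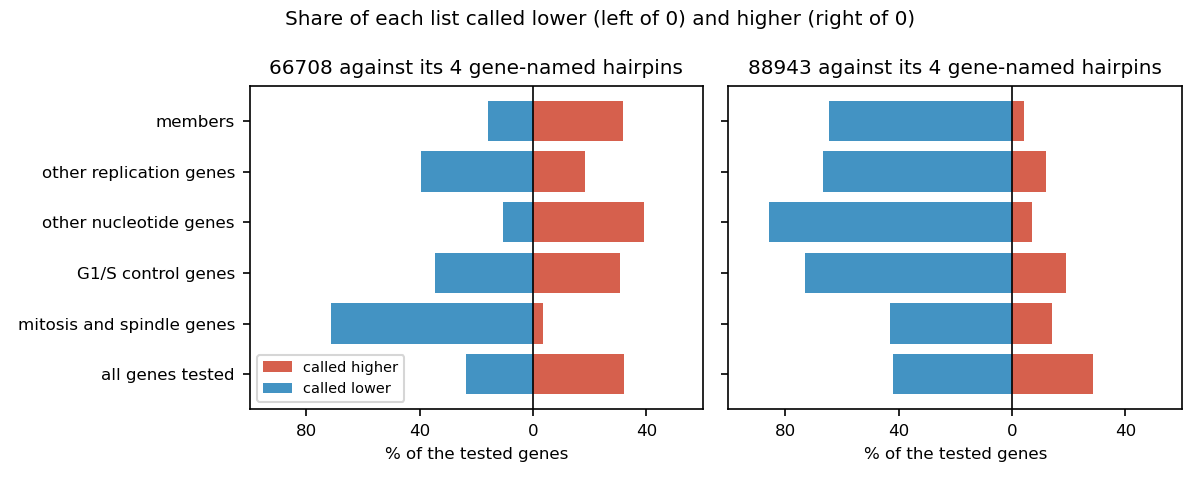
Share of the tested genes of each list called lower (blue, left of 0) and higher (red, right of 0), in 66708 (left panel) and in 88943 (right panel) against the 4 gene-named hairpins of the table. With the deposited scaling, the members were called lower in 64.4% of cases in 88943 and in 15.9% in 66708. The mitosis list was called lower in 42.9% in 88943 and 71.4% in 66708. With library totals the 28 genes of the mitosis list had 9 higher and 8 lower calls in 88943, where 42.4% of all genes were higher and 28.8% lower.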

How the data were processed

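The authors deposited variance-stabilized expression values, whose scale approaches log2 for abundant genes. The submitters' processing notes name Bowtie2, mm10, HTSeq and DESeq, and per the labels' protocols total RNA was amplified with the NuGEN Ovation V2 system and read at 76 bases. Neither strand setting nor counting annotation is given in the sources used here. Each table holds 10 columns, 2 per hairpin, used as its replicates because their names match no single labelled sample.

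The transform was inverted, and 100% of 469600 values came out as whole reads within a tolerance of 0.001. Scaled reads are these reads divided by the authors' size factors, and CPM are relative to the library's total. Tests used limma 3.58.1 in R 4.3.3 on the deposited values with a trend, in 1 model of 5 hairpins per table. They were two-sided, and p-values were adjusted by Benjamini and Hochberg over every gene with a mean of 1 unit or more over its table's lowest value (7.92 for Slpi, 8.12 for Mgp), which is about 121 and 139 scaled reads. The script was tested on simulated data. The alternatives were other filters, scalings and replicate treatments and voom on the recovered reads. Named genes were the members, up to 4 called genes with the largest difference per other list, and 5 genes named in any case. The members and the lists were chosen with earlier results of these data known. Coordinates are from the GENCODE annotation of GRCm38 and promoter windows from RefSeq.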

Additional observations from a re-analysis of the deposited data

Results flagged for a closer look

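Of the 44 members tested in both tables, 12 (27.3%) had both 66708 libraries above all 8 Slpi-named libraries and both 88943 libraries below all 8 Mgp-named libraries, as did 14.4% of the 9144 genes tested in both. None had the opposite pattern, which 8.13% of all genes had. No test was made of these shares. The log2 differences on the deposited scale were 0.12 in 66708 and -0.39 in 88943 for Mcm5, 0.24 and -0.14 for Mcm7, 0.23 and -0.67 for Cdc6, 0.10 and -0.23 for Gmnn, 0.26 and -0.63 for Orc2, and 0.12 and -0.37 for Orc6. They were 0.14 in 66708 and -0.17 in 88943 for Rfc5, 0.15 and -0.32 for Rpa1, 0.25 and -0.35 for Rpa2, 0.22 and -0.31 for Fen1, 0.10 and -0.18 for Tyms, and 0.067 and -0.16 for Chaf1a, which was not called in 66708. The difference between the hairpins was not tested, because the tables were normalized separately. With library totals as the scale, Mcm5, Gmnn, Orc6, Rfc5, Rpa1 and Tyms were no longer called in 66708, and Mcm7 and Chaf1a no longer in 88943. The authors' size factors relative to library reads (on 1 arbitrary scale) were 0.572 and 0.575 in 66708 against 0.603 to 0.620 in the Slpi-named libraries, and 0.612 and 0.615 in 88943 against 0.550 to 0.565 in the Mgp-named libraries, and the part of this in the pattern was not tested.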

How the results depend on the processing

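No called member of 66708 or 88943 changed sign in any fit listed here. Higher calls in 66708, 14 as reported, were 5 with a minimum of 3 units, 8 with equal library medians, 7 with quantile normalization, 5 with library totals (a scaling chosen after seeing the data) and 5 with hairpin means as samples, and lower calls were 3 with hairpin means. Higher calls in 88943, 2 as reported, were 1, 6, 6, 10 and 0 in the same order, and lower calls, 29 as reported, were 13 with the minimum of 3 units, which left fewer genes to test. Of the 29, 22 passed in every other fit. Calls in Slpi2 were 1 without a filter and 1 with the minimum of 3 units, in Slpi4 0 without a filter, and among the Slpi-named hairpins 0 without a filter. Mgp1 had 0 calls without a filter, 3 with voom, 2 with library totals and 5 with the replicate block, Mgp1U1 1 without a filter and 1 with the minimum of 3, and Mgp2 1, 2 and, with the replicate block, 7. Calls among the Mgp-named hairpins were 3 without a filter and 4 with the minimum of 3. Causes other than the number of genes tested were not tested. Whether libraries were paired across hairpins could not be told. The gene-wise difference between the libraries of a hairpin correlated between hairpins at -0.53 to 0.55 (median -0.015) over 10 hairpin pairs in the Slpi table. In the Mgp table it correlated at -0.17 to 0.29 (median 0.008). A batch shared by libraries with unlike numbers could give either sign, and a block coded by column number would not absorb it. With the replicate block 14 members were higher and 7 lower in 66708, of which 13 and 7 were the same genes (Rrm2 was lost), and 2 and 29 in 88943. Leaving out each library in turn gave 8 to 14 higher and 5 to 8 lower calls in 66708, 1 to 2 and 26 to 31 in 88943, 0 to 0 in Slpi1U1 and Slpi1U2, 0 to 2 in Slpi2, 0 to 3 in Slpi4, 1 to 8 among the Slpi-named hairpins, 0 to 8 in Mgp1, 0 to 6 in Mgp1U1, 1 to 11 in Mgp2, 0 to 10 in Mgp1U3 and 4 to 21 among the Mgp-named hairpins. With 2 libraries per hairpin, counting error and library spread limit the weakest members, Ccne1 with 70 to 229 reads per library.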
